A study of Sus scrofa with 4 samples.

Results

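The nuclear-encoded respiratory chain was examined in pig granulosa cells, the somatic cells of the ovarian follicle that surround and nourish the oocyte. The genes were taken by symbol: those of complex I (NDUFA, NDUFB, NDUFC, NDUFS and NDUFV), the SDH genes of complex II, the UQCR genes and CYC1 of complex III, COX4 to COX8 of complex IV and the ATP5 genes of complex V, each with at least 40 reads over the 4 libraries. Of 29884 rows in the count table, 78 matched a symbol and 77 had enough reads. The row left out, COX8H, had 0 reads, and the member with the fewest, NDUFA4L2, had 63. CYC1 and further subunits of complexes III and IV are not analysed here, so complex III is represented by UQCR10 and UQCRB.

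Granulosa cells had been isolated from antral follicles, and part of each isolate had gone to flow cytometry for the cell cycle. The 4 RNA-seq libraries were made from the rest: 2 of cells rich in G0/G1, the phases before DNA is copied, and 2 of cells poor in it. Whether a library pools the cells of several follicles is not stated. The high G0/G1 and low G0/G1 groups share species, tissue and cell type, no treatment is given for either, and the shares themselves, the animals' age and breed and the number of animals are not stated. All 9 granulosa markers examined were detected, INHA at 6705 to 10576 CPM (reads scaled to the effective size of each library) and GATM at 0.565 to 3.76 CPM. Their detection does not show that a library held granulosa cells alone. Low replicate 2 also had 1421 CPM of 6 fibroblast markers. Several granulosa markers lay apart between the groups. FSHR, the receptor of follicle-stimulating hormone, was at 22.5 and 26.0 CPM in high, against 81.6 and 85.9 CPM in low. Its edgeR adjusted p was 0.125, the smallest of all genes tested, and its DESeq2 adjusted p was 1.07e-07. AMH, INHBA and FOXL2 also lay lower in both high libraries, and INHA, AMHR2 and NR5A2 higher. AMHR2 had a DESeq2 adjusted p of 0.00457 (edgeR adjusted p = 0.162). Those of the others with DESeq2 ran from 0.146 (AMH) to 0.454 (INHA). The part of the granulosa markers in the results was not tested.

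The respiratory chain sits in the inner mitochondrial membrane. Complex I takes electrons from NADH and complex II from succinate, both hand them to ubiquinone, complex III passes them on to cytochrome c, and complex IV gives them to oxygen. Complexes I, III and IV pump protons, and complex V, the ATP synthase, lets the protons flow back to make ATP. Apart from the subunits of complex II, which are all nuclear, the complexes mix subunits made from nuclear genes with a few encoded in mitochondrial DNA, and dedicated assembly factors put them together. Granulosa cells are known for strong glycolysis and also for steroid synthesis, which begins inside mitochondria.

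Most of the chain stood slightly lower in the high G0/G1 libraries. The 77 genes together took 0.629% (95% Wilson interval 0.626% to 0.632%) of the reads of high replicate 1 and 0.570% (0.567% to 0.573%) of high replicate 2, against 0.770% (0.767% to 0.773%) of low replicate 1 and 0.808% (0.805% to 0.811%) of low replicate 2. The 2 groups did not overlap in this share. With 2 libraries against 2, an exact two-sided permutation test cannot go below p = 0.333, so no test of the share is given. In bulk RNA, fewer cells of a type and less RNA per cell cannot be told apart.

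Of the 77 genes, 70 were lower in high G0/G1 cells and 7 were higher by edgeR's fitted log2 fold change, with a median of -0.36, which is 1.29-fold lower. Over all 14352 genes tested the median was -0.01, and 50.6% of genes had a negative value, against 90.9% of the 77. In 58 genes (75.3%) both high libraries lay below both low ones, compared with 29.8% of all genes tested. In 1 gene, NDUFAF3, both lay above, compared with 26.8% of all genes. The differences were small: 17 of the 77 (22.1%) were lower by more than 1.5-fold, close to the 20.7% of all genes, and 52 (67.5%) fell within the middle 50% of all fold changes, between -0.47 and 0.47 on the log2 scale.

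None of the 77 passed edgeR's quasi-likelihood test at an adjusted p under 0.05, as was true of all genes in the table (0.00% lower and 0.00% higher), and the smallest adjusted p among them was 0.170 (ATP5D). At an unadjusted p under 0.05, 16 of the 77 (20.8%) were lower and 0 higher, where 10.8% of all genes were lower and 9.92% higher. DESeq2 called 1 of them lower, ATP5D, where it called 5.05% of all genes lower and 5.34% higher, and gave 13 an unadjusted p under 0.05, all lower, where 11.3% of all genes were. The count of 16 leaned on single libraries. Leaving out high replicate 1 gave 20 (26.0% of the 77, beside 15.2% of all genes), and leaving out high replicate 2 gave 8 (10.4% beside 8.60%). Leaving out low replicate 1 gave 0 (beside 4.81%), and leaving out low replicate 2 gave 3 (3.90% beside 5.36%). After adjustment edgeR called 0 of the 77 in each of these fits, although it called 3.92% of all genes lower and 2.41% higher when high replicate 1 was absent. DESeq2 then called 3 of the 77 lower (8.36% of all genes), and 0 with high replicate 2 (3.13%), low replicate 1 (0.76%) or low replicate 2 (0.94%) absent. The number of genes on the lower side was steadier, between 64 and 70 of 77 with 1 library left out. These fits share libraries, and 14 of the 77 reversed sign in at least 1 of them. The median of all genes ran from -0.05 to 0.07 in the same fits.

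**Figure D1:**
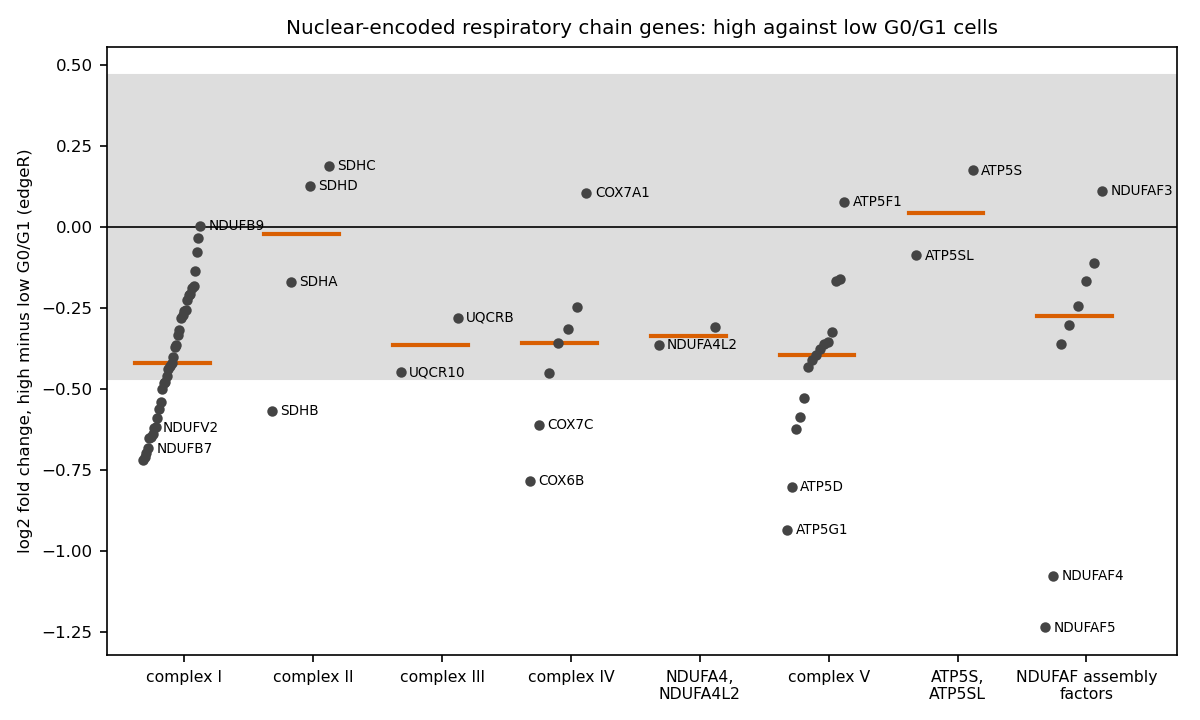
Each point is 1 of the 77 genes, placed by complex or gene pair on the x axis and by its edgeR log2 fold change (high minus low G0/G1) on the y axis; orange bars are medians and the grey band spans the middle 50% of all genes tested (-0.47 to 0.47). Most points of complexes I, IV and V lie below 0 and within the band, while SDHC and SDHD of complex II lie above 0.

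The 4 libraries also differed within groups. High replicate 2 was the lowest library for 52 of the 77 genes, where it was the lowest for 34.2% of all genes tested, and low replicate 1 was the highest for 44, where it was the highest for 24.6%. The mean deviation of the 77 from their own averages, on the log2 scale, was -0.13 and -0.25 in high and 0.22 and 0.16 in low libraries. Replicates lay close together: the median gap between the 2 high libraries was 0.19 on the log2 scale and that between the 2 low ones 0.16, against 0.42 and 0.29 over all genes tested. These genes were also deeply read, with a median of 7746 reads over the 4 libraries against 2725 over all genes tested. The part of depth in the smaller gaps was not tested.

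**Figure D2:**
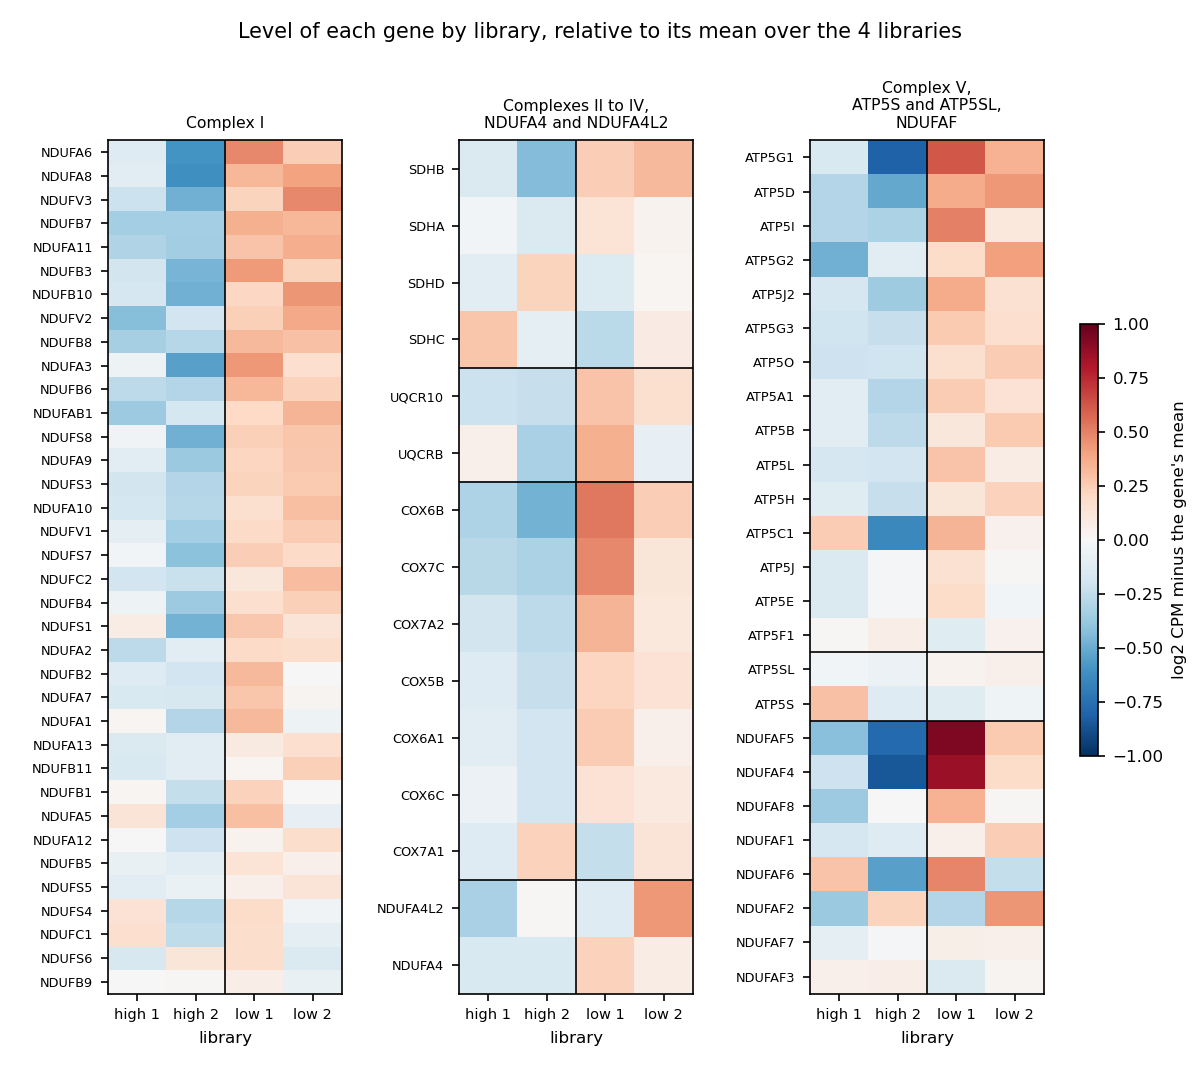
Rows are genes, without 1 complex I subunit, and columns the 4 libraries; colour gives the log2 CPM of a gene in a library minus its mean over the 4 libraries, blue for lower and red for higher, and black lines separate the groups of genes. The high columns are mostly blue and the low columns mostly red, with high replicate 2 the lowest library for 52 of the 77 genes.

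Complex I, the NADH dehydrogenase, had 37 subunits in the table. Of these, 36 were lower in high G0/G1 cells, and the median log2 fold change was -0.42. Both high libraries lay below both low ones in 30, and 10 had an unadjusted p under 0.05, all lower. The values ran from -0.72 for NDUFA6 to 0.00 for NDUFB9.

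The 7 core subunits, which carry the flavin and the iron-sulphur clusters that lead electrons to ubiquinone, were all lower, at a median of -0.44. Their groups did not overlap, where 29.8% of all genes tested were lower without overlap. NDUFV2 (chromosome 6, 98819156 to 98852561 in Sscrofa11.1), an iron-sulphur subunit near the NADH site, stood at 50.6 and 59.3 CPM in high, against 80.2 and 88.5 CPM in low. Its log2 fold change was -0.62 ± 0.21 (SE, edgeR adjusted p = 0.205), the largest of the core. NDUFV1, which binds NADH and the flavin, stood at 99.0 and 83.7 against 121 and 126 CPM, a log2 fold change of -0.44 ± 0.20. NDUFS1, the largest iron-sulphur subunit, had 108 and 74.0 CPM in high, against 124 and 112 CPM in low. The gap between its high libraries, 0.55 on the log2 scale, was wider than the difference between groups, and its log2 fold change of -0.37 was -0.12 without high replicate 2 and -0.68 without high replicate 1. NDUFS3, NDUFS7 and NDUFS8 ranged from -0.50 to -0.43. The high libraries of NDUFS7 (65.5 and 50.2 CPM) and NDUFS8 (107 and 77.9 CPM) lay 0.38 and 0.45 apart on the log2 scale, and without high replicate 2 their log2 fold changes were -0.25 and -0.29.

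Among the 30 accessory subunits, which surround and steady the core, 29 were lower, with a median log2 fold change of -0.38. NDUFB7 (chromosome 2, 64718892 to 64723631), a subunit of the membrane arm, had the smallest p of complex I, with 34.5 CPM in each high library against 55.8 and 54.9 CPM in low. Its replicates were within 1 CPM of each other in both groups, and its log2 fold change was -0.68 ± 0.20 (SE, edgeR adjusted p = 0.182). NDUFB8, another membrane arm subunit, stood at 66.7 and 68.8 against 105 and 103 CPM (-0.62 ± 0.19, edgeR adjusted p = 0.192). NDUFV3, a subunit of the NADH-oxidising tip, stood at 65.1 and 54.0 against 87.9 and 105 CPM (-0.70 ± 0.22, edgeR adjusted p = 0.197). Other accessory subunits at an unadjusted p under 0.05 were NDUFA11, NDUFA8, NDUFB10, NDUFA6, NDUFB3 and NDUFB6, at -0.72 to -0.56. In all, 9 of the 30 (30.0%) were lower at that threshold, beside 10.8% of all genes tested.

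NDUFAB1, the mitochondrial acyl carrier protein, which serves fatty acid synthesis as well as complex I, stood at 15.8 and 18.1 CPM in high, against 23.5 and 25.8 CPM in low, a log2 fold change of -0.54 ± 0.24. The groups overlapped in 7 accessory subunits, NDUFA1, NDUFB1, NDUFA5, NDUFS4, NDUFC1, NDUFS6 and NDUFB9. NDUFB9, the only complex I subunit without a lower fitted value, had 67.0 and 67.9 CPM in high and 70.6 and 63.9 CPM in low. NDUFS6 stood at 31.4 and 38.2 against 39.6 and 31.7 CPM, so its lower and higher values were split between the groups.

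The NDUFAF genes encode assembly factors of complex I, which help build it and are not part of the finished enzyme. Of 8 genes, 7 had lower fitted values, with a median of -0.27 on the log2 scale, and they spread more widely than the subunits, from -1.23 to 0.11. NDUFAF5 (chromosome 17, 22480344 to 22508804), which modifies the core subunit NDUFS7, stood at 5.70 and 4.42 CPM in high, against 14.6 and 9.19 CPM in low. With a log2 fold change of -1.23 ± 0.40 (SE, edgeR adjusted p = 0.200) it had the largest difference of all 77 genes, and without low replicate 1 it was -0.80. NDUFAF4, an early assembly factor, had 3.15 and 2.00 against 6.71 and 4.16 CPM (-1.08 ± 0.50, edgeR adjusted p = 0.292), and low replicate 1 was again the highest library. With all 4 libraries these were the only 2 of the 77 genes lower by more than 2-fold. Without low replicate 1 NDUFAF4 was at -0.63, so neither was then lower by 2-fold.

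NDUFAF1, which helps to build the membrane arm, stood at 30.3 and 31.0 against 35.3 and 40.3 CPM (-0.30 ± 0.21), with low libraries farther apart than the high ones. NDUFAF3, which works with NDUFAF4, stood at 43.5 and 44.0 CPM in high and 38.1 and 42.9 CPM in low, a log2 fold change of 0.11 ± 0.20. Its high libraries both lay above the low ones by a margin smaller than the gap between the low libraries, and with another scaling of the libraries (totals only, or the upper quartile) the groups overlapped. NDUFAF6 and NDUFAF2 overlapped between groups, and NDUFAF7 and NDUFAF8 had log2 fold changes of -0.11 and -0.36. Without low replicate 1, NDUFAF8 was at -0.11.

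Complex II, succinate dehydrogenase, belongs both to the respiratory chain and to the tricarboxylic acid (TCA) cycle. Of its 4 subunits 2 had lower and 2 higher fitted values in high G0/G1 cells, and differences between subunits were not tested. SDHB (chromosome 6, 75648362 to 75678111), the iron-sulphur subunit, stood at 68.3 and 56.0 CPM in high, against 89.4 and 94.6 CPM in low, with a log2 fold change of -0.57 ± 0.21 (SE, edgeR adjusted p = 0.224). SDHA, the flavoprotein that oxidises succinate, stood at 220 and 203 against 246 and 230 CPM. Its groups did not overlap, but the difference of -0.17 ± 0.20 on the log2 scale was within its error. The groups of both membrane anchors overlapped. SDHC stood at 140 and 109 CPM in high and 95.7 and 123 CPM in low (0.19 ± 0.25), and SDHD at 60.5 and 75.9 against 59.1 and 65.8 CPM (0.13 ± 0.22). SDHC was -0.01 without high replicate 1 and SDHD -0.04 without high replicate 2, so neither had a settled direction.

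The median of complex II was -0.02, beside -0.42, -0.36 and -0.39 in complexes I, IV and V. It was 0.0059 on the log2 scale with DESeq2's scaling, so it had no settled sign. The difference between complex II and the other complexes was not tested, and it rests on 4 genes. Among genes closer than 200 kb in Sscrofa11.1, both NDUFV1 and NDUFS8 on chromosome 2 (-0.44 and -0.50) and NDUFS7 and ATP5D on the same chromosome (-0.43 and -0.80) were pairs with lower fitted values. A further pair, which includes SDHC (0.19), is not reported in full here. In all, the 77 genes were spread over 18 chromosomes.

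**Figure D3:**
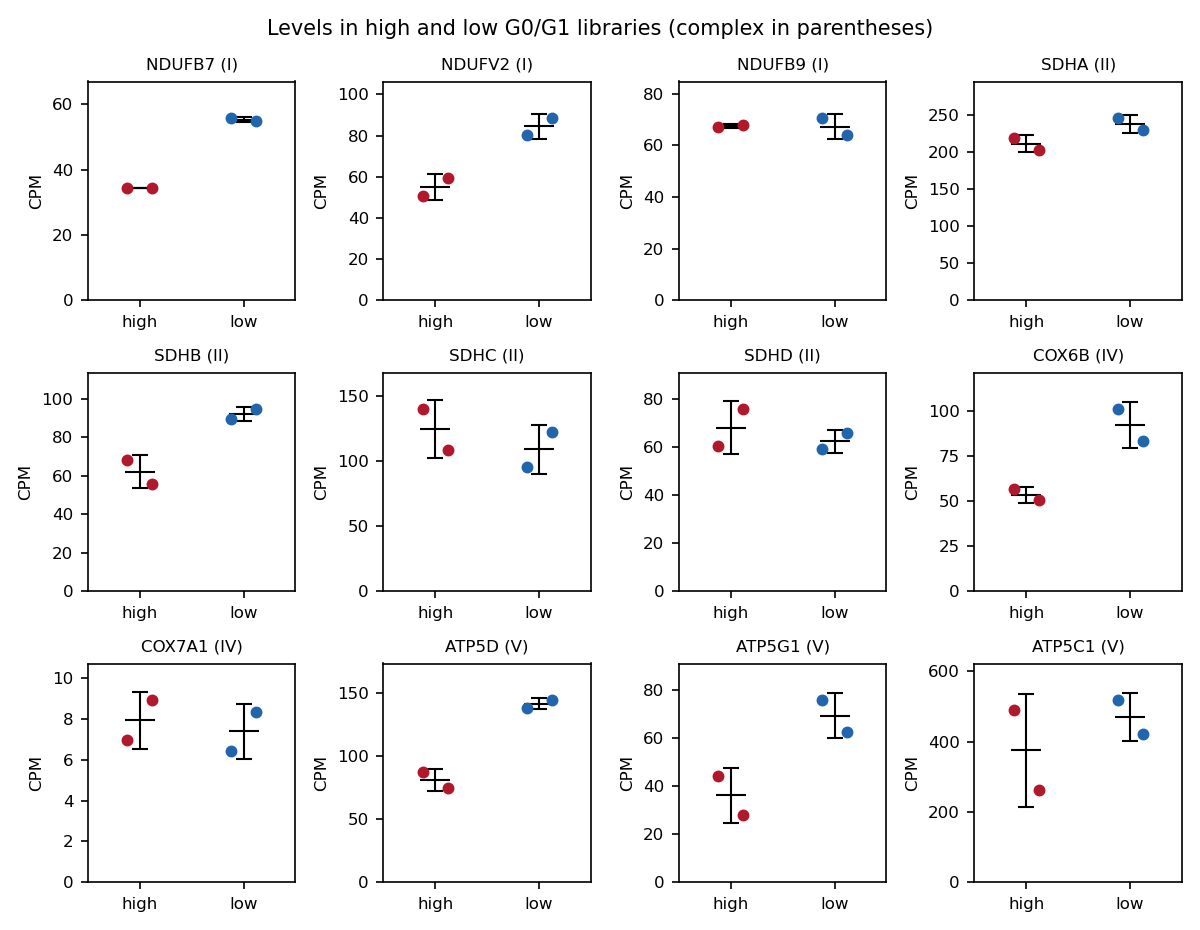
Each panel shows 1 gene, with its complex in parentheses, and points give the CPM in the 2 high (red) and the 2 low (blue) G0/G1 libraries, with black bars for the mean ± SD (n = 2). NDUFB7, SDHB, COX6B, ATP5D and ATP5G1 separate by group, while SDHC, SDHD, COX7A1 and ATP5C1 overlap.

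Complex III, the cytochrome bc1 complex, had 2 small subunits in the table, both lower in high G0/G1 cells. UQCR10 stood at 36.8 and 36.5 CPM in high, against 52.3 and 47.7 CPM in low (-0.45 ± 0.20, edgeR adjusted p = 0.278), and its groups lay apart. UQCRB, a subunit close to the ubiquinone site, stood at 26.6 and 20.4 against 32.9 and 24.2 CPM (-0.28 ± 0.28, edgeR adjusted p = 0.602). Its groups overlapped, and its log2 fold change was 0.02 without low replicate 1, when the median of the 2 genes was -0.15 in place of -0.36.

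Complex IV, cytochrome c oxidase, had 7 nuclear subunits in the table under COX symbols. Of these, 6 (85.7%) were lower in high G0/G1 cells without overlap between groups, beside 29.8% of all genes tested. COX6B (chromosome 6, 45091829 to 45102785), a subunit on the outer face of the enzyme near the cytochrome c site, had the largest difference, with 56.6 and 50.4 CPM in high, against 101 and 83.2 CPM in low. Its log2 fold change was -0.78 ± 0.21 (SE, edgeR adjusted p = 0.176). COX7C, a small membrane subunit, stood at 104 and 101 against 176 and 137 CPM (-0.61 ± 0.22, edgeR adjusted p = 0.219). Low replicate 1 was the highest library for both, and without it the log2 fold changes were -0.57 and -0.35.

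COX5B, a matrix-facing subunit that binds zinc, stood at 125 and 116 CPM in high and 158 and 150 CPM in low (-0.36 ± 0.19). COX6A1, the form of subunit VIa found in most tissues, stood at 203 and 193 against 263 and 229 CPM (-0.31 ± 0.21). The low libraries of COX6A1 lay farther apart than the groups did, and without low replicate 1 its log2 fold change was -0.14. COX6C had a log2 fold change of -0.25.

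Subunit VIIa comes in a muscle form, COX7A1, and a form found in most tissues, COX7A2. COX7A2 stood at 63.8 and 60.5 CPM in high, against 92.0 and 78.0 CPM in low, a log2 fold change of -0.45 ± 0.20 (edgeR adjusted p = 0.281). COX7A1 stood at 6.94 and 8.92 against 6.43 and 8.32 CPM, with overlapping groups and a log2 fold change of 0.10 ± 0.36 (edgeR adjusted p = 0.892) that was -0.09 without high replicate 2. The ratio of COX7A1 to COX7A2 reads was 0.109 and 0.147 in high and 0.0699 and 0.107 in low libraries, a mean difference of 0.55 on the log2 scale. High replicate 1 and low replicate 2 were nearly level in that ratio. It is a ratio of reads, not corrected for transcript length.

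NDUFA4 carries a complex I symbol but is known as a subunit of complex IV, and NDUFA4L2 is its paralog, a known target of the hypoxia-inducible factor HIF1. NDUFA4 stood at 71.1 CPM in each high library and at 92.9 and 83.2 CPM in low, a log2 fold change of -0.31 ± 0.19 (edgeR adjusted p = 0.405), close to that of the COX genes. RefSeq lists a pseudogene under the same symbol, and which copy the reads came from is not given in the sources used here. NDUFA4L2 was barely detected, with 12 and 15 reads in high and 15 and 21 in low libraries, or 0.403 to 0.728 CPM. At this depth no difference was detectable (-0.36 ± 0.66, edgeR adjusted p = 0.783).

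Complex V, the ATP synthase, had 15 subunits in the table, listed here under older symbols, and 14 of them were lower in high G0/G1 cells, and the median log2 fold change was -0.39. In 12 (80.0%) both high libraries lay below both low ones, beside 29.8% of all genes tested.

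The F1 head, which makes ATP, had 5 genes, all with lower fitted values. ATP5D (chromosome 2, 77216430 to 77219301; current symbol ATP5F1D), the delta subunit of the turning central stalk, had the smallest p of the 77 genes. It stood at 86.9 and 74.9 CPM in high, against 138 and 144 CPM in low, with a log2 fold change of -0.80 ± 0.20 (SE, edgeR adjusted p = 0.170, DESeq2 adjusted p = 0.0366). With 1 library left out its log2 fold change ran from -0.92 to -0.70. ATP5A1 (ATP5F1A), the alpha subunit, stood at 553 and 485 against 708 and 658 CPM (-0.39 ± 0.22), and ATP5B (ATP5F1B), the beta subunit with the catalytic sites, at 785 and 709 against 920 and 1018 CPM (-0.37 ± 0.22). In both the groups lay apart by more than the replicates did, and the edgeR adjusted p was 0.351 and 0.379.

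ATP5C1 (ATP5F1C), the gamma subunit that turns inside the head, overlapped between groups. It had 489 and 262 CPM in high, against 518 and 421 CPM in low, so high replicate 2 stood alone and high replicate 1 lay among the low libraries. The log2 fold change of -0.32 ± 0.36 was 0.06 without high replicate 2 and -0.85 without high replicate 1. ATP5E, the epsilon subunit, overlapped between groups (-0.16 ± 0.20).

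The c-ring, the rotor in the membrane, is built from a single mature protein that comes from 3 genes with different import signals. All 3 were lower, without overlap between groups, as were 29.8% of all genes tested. ATP5G1 (ATP5MC1; chromosome 12, 25110540 to 25113481) had 44.3 and 28.01 CPM in high, against 75.7 and 62.6 CPM in low, a log2 fold change of -0.94 ± 0.29 (SE, edgeR adjusted p = 0.196). This was the largest difference among the structural subunits of all complexes, 1.91-fold, and it ranged from -1.31 to -0.64 with 1 library left out. ATP5G2 (124 and 160 against 196 and 230 CPM) and ATP5G3 (160 and 156 against 220 and 206 CPM) had log2 fold changes of -0.58 ± 0.24 and -0.43 ± 0.20. The ratio of ATP5G1 to ATP5G3 reads was 0.277 and 0.180 in high and 0.344 and 0.304 in low libraries, and the groups lay apart. The ratio of ATP5G1 to ATP5G2 reads, 0.357 and 0.175 in high and 0.385 and 0.272 in low, overlapped between groups, as did that of ATP5G2 to ATP5G3. Reads shared by these 3 similar genes may have been split between them in ways that cannot be told.

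The peripheral stalk, which holds the head still, was the least shifted part of complex V, with a median of -0.26 over 4 genes. ATP5O, the OSCP subunit at its top, stood at 159 and 160 against 205 and 219 CPM (-0.41 ± 0.20), while ATP5F1 (ATP5PB), subunit b, stood at 202 and 210 against 184 and 206 CPM (0.08 ± 0.20) and overlapped between groups. ATP5H (-0.35 ± 0.19) and ATP5J (-0.16 ± 0.19), subunits d and F6, lay between them. The 3 small membrane subunits e, f and g, ATP5I, ATP5J2 and ATP5L, were at -0.62, -0.53 and -0.36. All were lower without overlap, as were 29.8% of all genes tested. Without low replicate 1, ATP5I was at -0.34 and ATP5L at -0.18. ATP5J2 stood at 60.0 and 52.9 against 87.5 and 75.1 CPM (-0.53 ± 0.21, edgeR adjusted p = 0.243). These divisions of complex V were not tested against each other.

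ATP5S and ATP5SL share the symbol stem but are not subunits of the synthase. ATP5S (DMAC2L), also called coupling factor B, stood at 13.2 and 9.83 CPM in high and 9.91 and 10.5 CPM in low, with overlap (0.17 ± 0.32). ATP5SL (DMAC2), which helps to assemble the membrane arm of complex I, stood at 113 and 111 against 118 and 120 CPM (-0.09 ± 0.19), a shift within its error. ATPIF1, the inhibitor that stops the synthase from running backwards, was outside the symbol rule and had a log2 fold change of -0.19 ± 0.20, with 42.9 and 44.2 against 48.2 and 50.8 CPM.

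Other genes of mitochondrial energy metabolism were read from lists in the same fit. After adjustment 0 of them passed edgeR's test and 2, PDSS1 and ECSIT, passed that of DESeq2, both lower, where DESeq2 called 5.05% of all genes lower. Of 13 TCA cycle genes 11 had lower values in high G0/G1 cells. Their median log2 fold change was -0.21 (-0.09 without high replicate 2). An unadjusted p under 0.05 was seen in 0, where 10.8% of all genes were lower and 9.92% higher at that threshold. The largest difference there was that of IDH3A (-0.79 ± 0.34), a subunit of isocitrate dehydrogenase, while OGDH, a subunit of the 2-oxoglutarate dehydrogenase complex, had 534 and 435 CPM in high against 428 and 397 CPM in low.

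Of 17 genes of electron carriers and ubiquinone synthesis 14 were lower (median -0.35). At an unadjusted p under 0.05, 1 was lower (5.88%, beside 10.8% of all genes tested) and 0 higher. That gene was PDSS1, which makes the side chain of ubiquinone. It stood at 2.38 and 1.40 CPM in high, against 9.50 and 6.90 CPM in low (-2.11 ± 0.48, edgeR adjusted p = 0.166, DESeq2 adjusted p = 0.00327). COQ8A, which supports ubiquinone synthesis, lay the other way at 36.4 and 52.5 against 14.7 and 29.0 CPM (1.02 ± 0.40, edgeR adjusted p = 0.242). CYCS, cytochrome c itself, overlapped between groups at 77.9 and 42.8 against 146 and 76.8 CPM.

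Of 20 tested assembly factors other than NDUFAF genes, out of 39 listed, 16 were lower (median -0.21), and 2 had an unadjusted p under 0.05, where 10.8% of all genes were lower at that threshold. ECSIT, a complex I assembly factor that also acts in innate immune signalling, stood at 50.2 and 35.6 against 88.4 and 83.1 CPM (-0.9996 ± 0.25, edgeR adjusted p = 0.169, DESeq2 adjusted p = 0.0288). COX17, the copper chaperone of complex IV, stood at 24.3 and 19.5 against 43.3 and 35.9 CPM (-0.85 ± 0.25, edgeR adjusted p = 0.183). Transcription factors and coactivators that govern mitochondrial genes showed little: 7 of 12 were lower and 5 higher, with a median of -0.05. Of them 0 had an unadjusted p under 0.05, where 10.8% of all genes were lower and 9.92% higher. NRF1, a factor known to bind many respiratory chain promoters, had 47.9 and 31.7 CPM in high and 46.0 and 38.4 CPM in low, and TFAM, which packages and transcribes mitochondrial DNA, 28.9 and 18.7 against 30.6 and 18.6 CPM. PPARGC1A, the coactivator PGC-1alpha, ranged from 0.570 to 6.32 CPM, with both extremes in the high group.

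The 12 tested subunits encoded in mitochondrial DNA had a median log2 fold change of -0.37, with 11 lower, but their groups overlapped in 9, and the median gap between replicates was 0.70 on the log2 scale in the high and 0.75 in the low group. Without low replicate 1 their median was 0.07, where that of the 77 nuclear genes was -0.30.

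**Figure D4:**
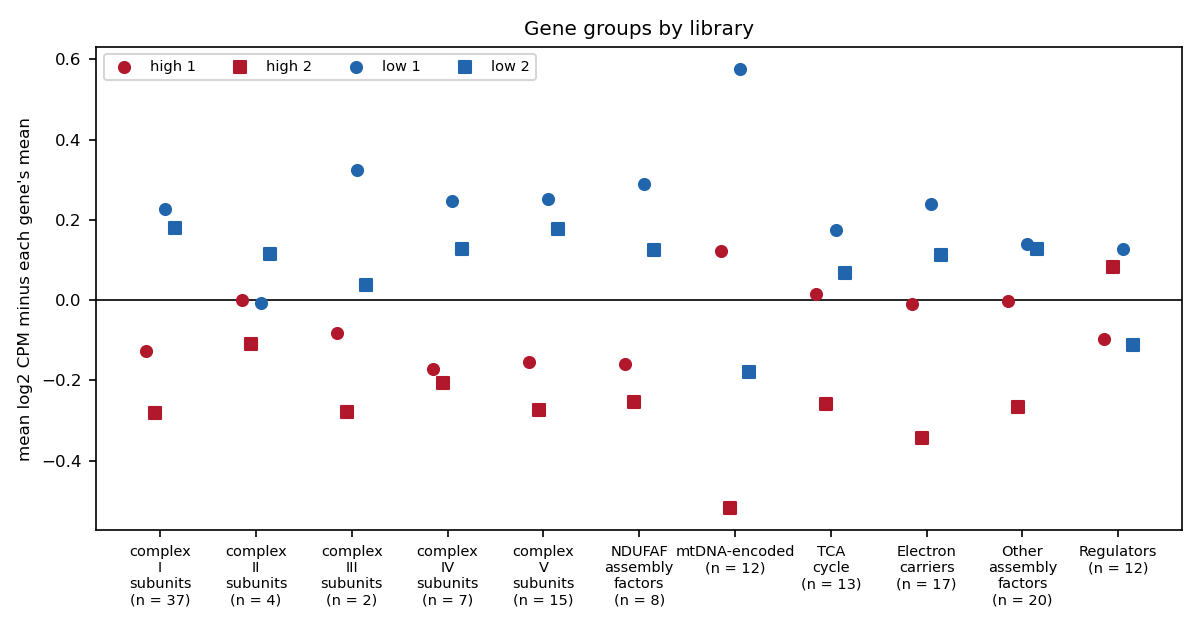
Each point is the mean, over the tested genes of a group (x axis, n genes), of log2 CPM minus the gene's own mean, with red for high and blue for low G0/G1 libraries and circles and squares for replicates 1 and 2. In complexes I, III, IV and V both red points lie below both blue ones. The same holds for the NDUFAF genes, TCA cycle genes, electron carriers and other assembly factors. Complex II, the genes encoded in mitochondrial DNA and the regulators mix the groups.

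Markers of other cells were not level across libraries. Low replicate 2 held 1421 CPM of 6 fibroblast markers in all, against 34.8 to 115 CPM in the other 3 libraries, and 508 CPM of 5 theca markers, against 109 to 142 CPM. Single theca markers also lay apart between the groups: INSL3, a peptide hormone of theca cells, was at 17.6 and 30.0 CPM in high, against 75.3 and 260.1 CPM in low (DESeq2 adjusted p = 0.000293, edgeR adjusted p = 0.169). PTCH1, a hedgehog receptor, lay the other way at 35.1 and 56.9 against 19.3 and 23.6 CPM (DESeq2 adjusted p = 0.0391, edgeR adjusted p = 0.182). The 7 endothelial markers ranged from 7.28 CPM in low replicate 1 to 56.5 CPM in low replicate 2, the 9 of pericytes and smooth muscle from 31.1 to 71.0 CPM, and the 7 of leukocytes from 0.972 to 3.55 CPM. Erythroid markers (3) ranged from 9.25 to 27.5 CPM, oocyte markers (3) from 6.43 to 11.5 CPM and the 4 of striated muscle from 0.386 to 1.94 CPM. The erythroid marker SLC4A1 and the muscle markers TNNT2 and ACTA1 were at 0 reads in each library. The part of these markers in the results was not tested beyond leaving out low replicate 2, which does not remove the split in INSL3. Without low replicate 2, 70 of the 77 genes were lower and their median was -0.42, against -0.36 with all 4 libraries. The median of all genes tested also moved, from -0.01 to 0.07. Library totals ran from 27442850 to 32674921 reads, and genes encoded in mitochondrial DNA took 1.65% and 1.36% of them in high, against 2.11% and 1.89% in low.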

How the data were processed

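Trizol-extracted RNA went into Illumina libraries, per the labels' protocols, and per the submitters' processing notes HISAT2 aligned the reads, on build Sscrofa11.1. Raw read counts per gene symbol were deposited for 4 libraries. Which counter, annotation release and strand setting made them is not given in the sources used here. Reads of similar, overlapping or antisense genes may therefore be divided between them in unknown ways. Coordinates are those of RefSeq for Sscrofa11.1, matched by symbol for all 77 genes.

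The whole table was fitted with edgeR 4.0.16 under R 4.3.3, high minus low, without covariates, by glmQLFit and glmQLFTest after TMM scaling. The filter was filterByExpr (at least 10 reads, 15 in total), which all 77 genes passed, and Benjamini-Hochberg adjustment ran over the 14352 genes tested. Dividing the size of the log2 fold change by the square root of F gave its standard error. CPM use TMM-scaled totals, and log2 CPM a prior count of 2. The fit was tested on simulated data with changes larger than those of any of the 77 genes. That test therefore does not show how well small differences are found. DESeq2 1.42.0, limma 3.58.1 (voom), other scalings, no filter and leaving out each library were alternatives. A count of 0 allows up to 3 reads, 0.0918 to 0.109 CPM, and intervals cover counting error only.

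Genes given with values were the catalytic and core subunits, isoform pairs, and the 3 smallest p-values in each of complexes I, III, IV, V and NDUFAF. The values of 1 core subunit are not reported here. Other genes given with values were chosen after their values were seen. The genes and lists were chosen with earlier results of these data known. Replicate numbers follow accession order and were not used to pair libraries. Nothing in the labels says that the libraries of a group are from separate animals. The p-values thus measure only how far these samples spread, which may be technical.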

Additional observations from a re-analysis of the deposited data

How the results depend on the processing

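Library totals alone, upper quartile scaling and TMM without the mitochondrially encoded genes were chosen after seeing the data. The median of the 77 genes minus that of all genes lay between -0.39 and -0.35 under the 7 alternatives with 4 libraries, and between -0.49 and -0.27 with 1 library left out. The numbers of genes called in the table, 0 higher and 0 lower with all 4 libraries, were 2 and 3 without the filter, 767 and 725 with DESeq2, and between 0 and 363 and between 0 and 591 with 1 library left out, of which 363 and 591 came without high replicate 1.

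Genes of the 77 with an unadjusted p under 0.05 on the lower side numbered between 0 and 20 with 1 library left out. Those with both high libraries above both low ones numbered 2 with DESeq2's size factors in edgeR and 2 with DESeq2. They numbered 0 with library totals alone and 0 with upper quartile scaling. With 1 library left out, between 3 and 6 genes had no overlap on the higher side. In those fits 1 group holds 1 library, so the condition is more easily met and the numbers are not comparable.

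With 1 library left out, medians ranged from -0.52 to -0.32 for complex I, -0.12 to 0.01 for complex II, -0.49 to -0.15 for complex III, -0.42 to -0.26 for complex IV and -0.41 to -0.22 for NDUFAF. That of complex II was 0.0059 under both uses of DESeq2's size factors, and without low replicate 1 and low replicate 2 it was 0.0138 and 0.0082. TCA cycle genes ranged from -0.27 to -0.09, electron carriers from -0.60 to -0.15, other assembly factors from -0.35 to -0.10, regulators from -0.19 to 0.14 and genes encoded in mitochondrial DNA from -0.79 to 0.074.

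The fitted sign of 14 of the 77 genes reversed when 1 library or another was left out, and that of 63 held in each of these fits. The 14 were ATP5C1, ATP5E, ATP5S, COX7A1, NDUFA5, NDUFAF2, NDUFAF6, NDUFB9, NDUFC1, NDUFS4, NDUFS6, SDHC, SDHD and UQCRB. Log2 fold changes ranged from -0.014 to 0.39 for SDHC, -0.044 to 0.27 for SDHD, -0.085 to 0.32 for COX7A1, -0.85 to 0.060 for ATP5C1 and -0.49 to 0.021 for UQCRB. COX7A1 was -0.0026 without low replicate 1. The causes were not tested. Leaving out a library leaves 1 in its group, which the fit assumes to vary like the other group. Values of many genes moved by over 1.5 times, and only some are listed here. Without low replicate 1 these included SDHA (-0.055), COX7A2 (-0.26), NDUFA4 (-0.16) and ATP5J2 (-0.35). They also included ATP5I (-0.34), ATP5L (-0.18), ATP5J (-0.029), NDUFA1 (-0.015), NDUFA7 (-0.12), NDUFB2 (-0.098) and NDUFAF8 (-0.11). Without low replicate 2 they included NDUFAF1 (-0.19), NDUFB11 (-0.13) and NDUFA12 (-0.12). No paired analysis was possible because the labels give no replicate number: those used here follow accession order, and what a letter shared by the titles of both replicates 2 stands for is not stated. Depth limits NDUFA4L2, with 63 reads in all.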
